A study of Homo sapiens with 14 samples.

Results

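Intervals near the starts of small RNA genes were taken from chromatin immunoprecipitation with sequencing (ChIP-seq) of the transcription factors STAT5 and BCL6. An interval was a member when the gene symbol listed for it began with MIR and a digit, MIRLET, SNORD, SNORA, SCARNA, RNU and a digit, RNY, RN7S or RNA5. This rule gave 11590 distinct intervals of 152412 (7.60%) over 6 lists, at 3048 symbols. By class there were 4842 intervals at U RNA genes (here called snRNA, although RNU7 is no spliceosomal RNA), 2502 at 7S RNA genes (7SL and 7SK), 1886 at microRNA genes, 1290 at 5S or 5.8S rRNA genes, 823 at small nucleolar RNA (snoRNA) genes, 187 at Y RNA genes and 88 at long host transcripts of microRNAs, whose symbols end in HG. In all, 28 intervals belonged to 2 classes, since an interval was listed once for each gene start nearby.

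All libraries came from DLD-1, an established human colorectal adenocarcinoma cell line, whose cells were transfected in culture and fixed 20 h later. Control cells carried an empty vector. Activator cells carried the plasmid pEGFP-C1199Tiam1, which codes for a fragment of TIAM1, an exchange factor that loads the small GTPase RAC1, and had vehicle for 16 h. Inhibitor cells carried the same plasmid and had 20 microM EHT 1864, a RAC inhibitor, for 16 h. They thus differ from the control cells in at least 2 ways. No time with vehicle is given for the control cells, so activator cells may also differ from them in more than the plasmid. The antibodies were C-17 for STAT5 and N-3 for BCL6. The control BCL6 and control STAT5 lists rest on 2 libraries each, activator STAT5 on 2 and inhibitor BCL6 on 3, which makes 9 libraries of the 14 in the series. The remaining 5, from activator cells with the BCL6 antibody and inhibitor cells with the STAT5 antibody, were not analysed here. Whether libraries of a group stem from separate cultures is not in the labels, and differences within a group may be technical.

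MicroRNAs are cut from hairpin transcripts and guide silencing complexes to messenger RNAs, mainly through the seed near their 5′ end. SnoRNAs guide chemical modification of rRNA and lie mostly in introns of host genes, many of which code for ribosomal proteins, while U RNAs form the spliceosome, 7SK holds back the elongation factor P-TEFb, 7SL is the RNA of the signal recognition particle and Y RNAs bind the Ro protein. The human genome holds many pseudogene copies of the U, 7S, Y and 5S genes. STAT5 and BCL6 recognise similar DNA sequences, STAT5 mainly as an activator of transcription and BCL6 as a repressor.

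Mature microRNAs whose genes have intervals in the treated lists, and which are described further on, are shown beside those with the same seed, because several genes of 1 seed were listed together. Sequences are from RefSeq (GRCh38.p14), where 122 of the 137 microRNA symbols of the activator STAT5 list and 12 of the 14 of the inhibitor BCL6 list matched. Capitals mark the seed, bases 2 to 8 from the 5′ end. The first 4 lines have their genes in the list of activator STAT5 intervals on control BCL6 peaks, as do miR-190a, miR-190b, miR-1 and miR-206, whereas the activator STAT5 interval of let-7i lies on no control BCL6 interval.
hsa-let-7a-5p: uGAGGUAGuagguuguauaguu
hsa-let-7f-5p: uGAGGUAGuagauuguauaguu
hsa-miR-15b-5p: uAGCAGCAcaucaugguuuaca
hsa-miR-16-5p: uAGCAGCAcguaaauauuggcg
hsa-let-7i-5p: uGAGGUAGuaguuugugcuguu
hsa-miR-190a-5p: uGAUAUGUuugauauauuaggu
hsa-miR-190b-5p: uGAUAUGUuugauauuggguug
hsa-miR-1-3p: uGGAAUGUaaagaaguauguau
hsa-miR-206: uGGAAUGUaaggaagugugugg
Further genes of the activator STAT5 list carry the seed of miR-21 (also in miR-590) and that of miR-221 and miR-222.
hsa-miR-21-5p: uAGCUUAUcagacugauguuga
hsa-miR-590-5p: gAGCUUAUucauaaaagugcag
hsa-miR-221-3p: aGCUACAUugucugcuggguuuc
hsa-miR-222-3p: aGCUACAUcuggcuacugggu
The inhibitor BCL6 list held the genes of miR-31, miR-192 and both members of the pair miR-181a-2 and miR-181b-2. The activator STAT5 list held the other copy of that pair, miR-181a-1 and miR-181b-1, with the same mature sequences of the 5′ arm (5p). The genes of both copies were also in both control lists.
hsa-miR-181a-5p: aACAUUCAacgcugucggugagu
hsa-miR-181b-5p: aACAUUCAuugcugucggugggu
hsa-miR-31-5p: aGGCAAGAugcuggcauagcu
hsa-miR-192-5p: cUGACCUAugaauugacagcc

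Seeds shared by at least 2 genes of a list numbered 20 among activator STAT5 intervals, with 32 of the 119 genes that had a mature sequence. Among inhibitor BCL6 intervals there was 1, with 2 of 12 genes. The control BCL6 list had 87, with 177 of 430 genes, and the control STAT5 list 73, with 157 of 426. Shared seeds were thus not particular to the treated lists. Genes that share a seed are often neighbours, and 1 interval can then stand for several of them. In the activator list 1 interval lay near both MIRLET7A1 and MIRLET7F1, 1 near both MIR15B and MIR16-2, and 1 near both MIR221 and MIR222. MIR190A (chromosome 15) and MIR190B (chromosome 1) share a seed on different chromosomes, as do MIR1-1 (chromosome 20) and MIR206 (chromosome 6).

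The hairpin of MIR583 is shown with its mature arm in capitals, since MIR583 was listed in all 4 separate lists and an activator STAT5 interval covered the hairpin itself. The other 3 microRNA genes of all 4 lists were MIR1207, MIR566 and MIR581.
MIR583 hairpin: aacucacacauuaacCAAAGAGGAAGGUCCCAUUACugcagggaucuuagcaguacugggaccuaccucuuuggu
The activator STAT5 interval chr5:95414757-95414970 (GRCh37) spans the gene (95414843 to 95414916, plus strand) and had values of 5 and 2. A control BCL6 interval with 2 and 2 (chr5:95415225-95415695), a control STAT5 interval with 2 and 2 (chr5:95415532-95415869) and an inhibitor BCL6 interval with 2, 2 and 2 (chr5:95415036-95415134) lay downstream of the hairpin.
The control BCL6 and control STAT5 intervals at MIR583 overlapped each other, and the treated intervals overlapped neither of them nor one another.

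Each interval carried 1 whole number for each library, either 0 or at least 2, which is read here as a count of reads since the headers do not name it. Control lists took an interval as soon as 1 library had a value there, whereas treated lists took only intervals with at least 2 in every library and none that shared a base with a control peak of the same antibody. Counts of intervals are therefore not compared between conditions. The depth of each library is unknown. Confidence intervals are exact 95% binomial intervals (Clopper-Pearson) and cover counting error only. All distances are to the start of the gene, and the lists reach from 3000 bp before it to 1000 bp after it. Reads from near-identical copies of a gene can be placed on the wrong copy, and the labels do not say how reads with several matches were counted, so intervals on repeated genes are uncertain. ChIP lists hold no expression values and do not check the cell type.

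Small RNA genes took 5292 of 68393 intervals of the control BCL6 list (7.74%, 7.54 to 7.94) and 5169 of 68320 of the control STAT5 list (7.57%, 7.37 to 7.77). They took 1031 of 14047 activator STAT5 intervals (7.34%, 6.91 to 7.78) and 98 of 1652 inhibitor BCL6 intervals (5.93%, 4.84 to 7.18). The inhibitor list thus had the lowest share, with an interval that lies below those of both control lists, but the entry rules differ and the difference was not tested. Median widths of the whole lists were 305, 304, 142 and 85.0 bp in the same order, and those of the member intervals were close to them.

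The order of the classes was the same in all 4 lists down to the rRNA genes: U RNA genes first, then 7S, microRNA and rRNA genes. U RNA genes took 3.19% of control BCL6 intervals (2184), 3.21% of control STAT5 (2191), 3.01% of activator STAT5 (423) and 2.66% of inhibitor BCL6 (44). At 7S genes the shares were 1.69% (1153), 1.61% (1097), 1.64% (231) and 1.27% (21). MicroRNA genes took 1.29% (884), 1.20% (817), 1.22% (172) and 0.787% (13). The share of microRNA genes in the inhibitor list had an interval of 0.420% to 1.34%, which still reaches the share in the control BCL6 list. The rRNA genes took 0.864% (591), 0.855% (584), 0.733% (103) and 0.726% (12), and snoRNA genes 0.541% (370), 0.536% (366), 0.562% (79) and 0.484% (8). Y RNA genes had 82, 87 and 18 intervals in the first 3 lists, host transcripts 39, 37 and 12, and neither had any in the inhibitor BCL6 list.

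**Figure D1:**
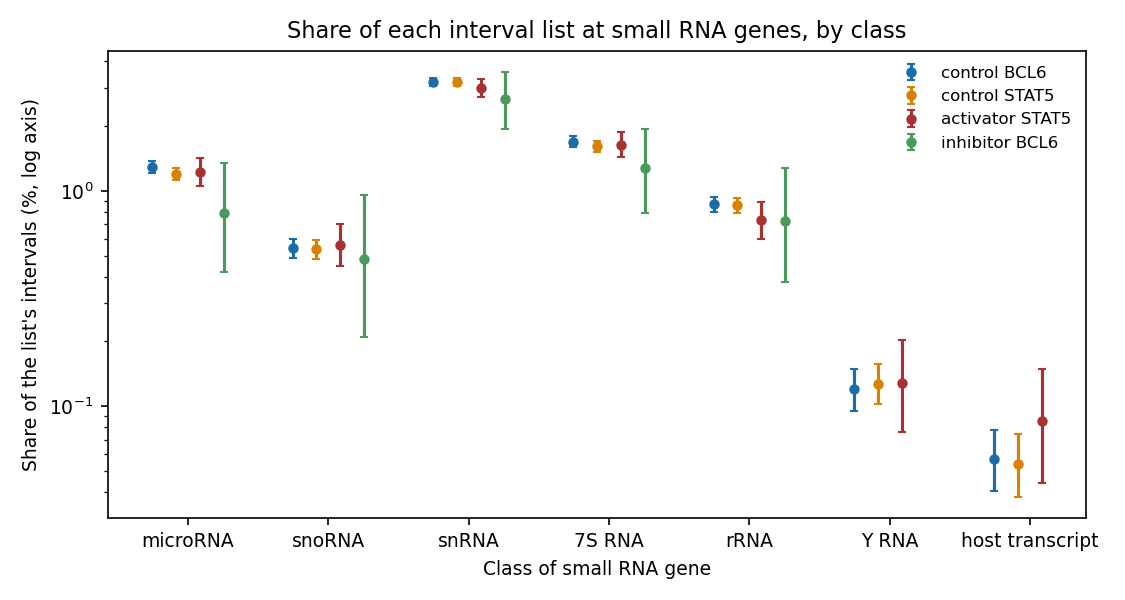
Share of each list's intervals (percent, log axis) at each class of small RNA gene, with exact 95% binomial intervals as bars, for the control BCL6, control STAT5, activator STAT5 and inhibitor BCL6 lists. The 2 control lists lie almost on each other in every class, for example at 3.19% and 3.21% for U RNA genes, and the bars of the inhibitor list, which rests on 98 intervals, are the widest.

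Within single control libraries the share of intervals at small RNA genes was 7.88% and 7.70% for BCL6 and 7.59% and 7.54% for STAT5. The means were 7.79% ± 0.130 (SD, n = 2) and 7.57% ± 0.0387 (SD, n = 2), and both STAT5 libraries were lower than both BCL6 libraries. An exact two-sided permutation test over the 4 libraries gave p = 0.333, which is the smallest p that 2 libraries against 2 allow. For the single classes the adjusted p of the same exact test lay between 0.934 and 1.00 (Benjamini-Hochberg).

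Set against the genes that RefSeq names in each class, microRNA genes and their host transcripts were listed least often in both control lists. The control BCL6 list reached 24.7% of 1913 microRNA symbols, 20.7% of 87 host transcript, 39.1% of 573 snoRNA, 50.2% of 542 rRNA, 53.2% of 79 Y RNA, 55.5% of 981 7S and 56.4% of 1837 U RNA symbols, against 70% of 20056 protein-coding symbols. The activator STAT5 list also had these at the bottom, with 7.06% of microRNA symbols, 8.05% of host transcripts, 16.2% of snoRNA, 15.7% of rRNA, 16.5% of Y RNA, 18.3% of 7S, 18.1% of U RNA and 24.7% of protein-coding symbols. The reference table is newer than the annotation of the lists and names microRNAs that the older annotation may lack, so these shares are lower bounds for the genes that could have been listed. Most listed genes of the repeated classes were pseudogenes: 1172 of 1205 U RNA symbols (97.3%), 628 of 629 7S symbols (99.8%), 312 of 315 rRNA symbols (99.0%) and 47 of 49 Y RNA symbols (95.9%), against 0.752% of the snoRNA symbols.

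Member intervals were spread over the window much like those of other genes. In bins of 500 bp each bin held between 9.8% and 13.5% of the pairs of member interval and gene in the 3 larger lists, against 10.3% to 13.1% for the whole lists. SnoRNA genes had more of their pairs near the gene start than the whole lists. In the control lists (BCL6, then STAT5) 14.9% and 14.6% of them had the interval centre in the 500 bp before the start, against 11.9% and 12.1%. This was not particular to snoRNA genes. All members had 13.4% and 13.5% there, U RNA genes 14.1% in both lists, and rRNA genes 12.2% and 15.6%. Genes of 7S and Y RNAs and host transcripts lay below the whole list in one or both control lists. In the activator STAT5 list, 15.6% of snoRNA pairs had the centre in the 500 bp before the start, against 12.4% in the whole list. In the 500 bp after the start it was 16.4%, against 11.6%. Each bin from 3000 to 1500 bp before the start held only 8.6% to 9.4% of these snoRNA pairs. The rRNA genes of that list were as high after the start, with 16.5%. The activator snoRNA shares rest on 128 pairs from 79 intervals, and the difference from the whole list was not tested.

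**Figure D2:**
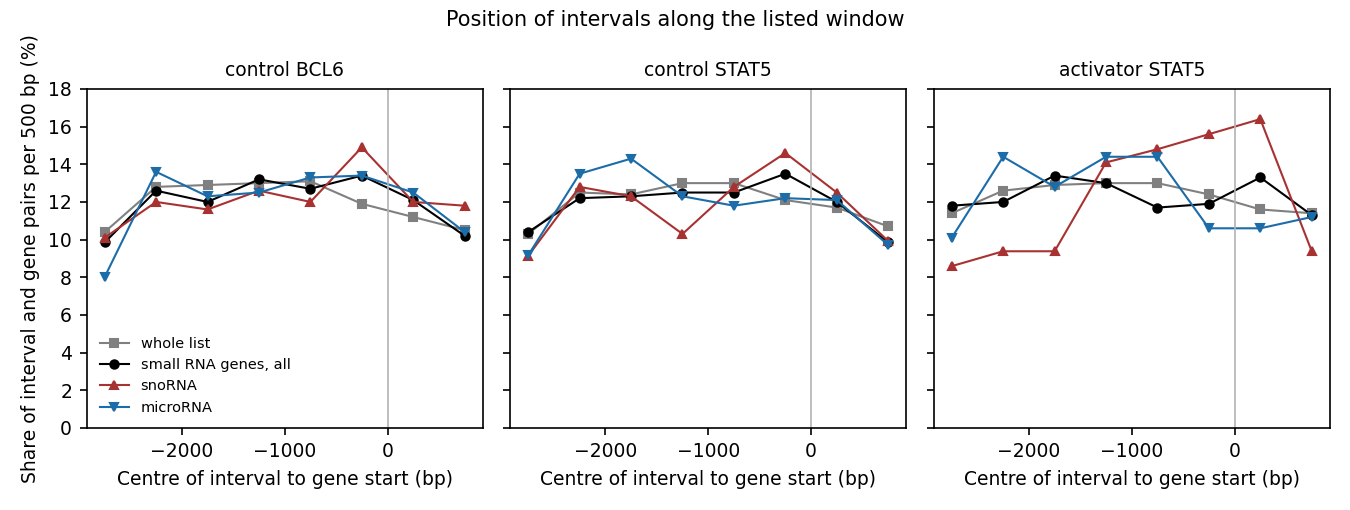
Share of the pairs of interval and gene (percent) whose interval centre falls in each 500 bp bin of distance from the gene start (bp), for the whole list, all small RNA genes, snoRNA genes and microRNA genes, in the control BCL6, control STAT5 and activator STAT5 lists. The lines for all small RNA genes follow those of the whole lists, and the snoRNA line of the activator STAT5 list rises to 16.4% just after the start.

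Small RNA genes are short, and an interval lay on the listed gene itself in 12.8%, 12.8%, 8.92% and 6.12% of member intervals (control BCL6, control STAT5, activator STAT5, inhibitor BCL6), against 24.5%, 25.6%, 22.4% and 20.8% of all intervals. A gene start was covered in 9.33%, 9.32%, 4.27% and 3.06% of member intervals, against 7.67%, 7.84%, 3.67% and 2.54% of all. SnoRNA intervals were on the gene in 15.4%, 16.4% and 19% in the first 3 lists and microRNA intervals in 13.3%, 11.5% and 5.23%. In the activator STAT5 list that is 15 of 79 snoRNA intervals and 9 of 172 microRNA intervals, in intervals whose median width is less than that of the control lists. C/D box snoRNAs, which guide methylation of ribose, had an interval over their start in 16.0% of activator STAT5 intervals (8 of 50, 7.17 to 29.1). H/ACA box snoRNAs, which guide pseudouridylation, had it in 5.88% (2 of 34, 0.720 to 19.7). These ranges overlap and the difference was not tested. In the control lists the shares (C/D box, then H/ACA box) were 15.5% and 5.63% for BCL6 and 13.3% and 11.6% for STAT5.

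The start of a protein-coding gene was listed for the same interval in 16.8%, 15.8% and 13.9% of snoRNA intervals and in 8.48%, 9.30% and 13.4% of microRNA intervals (control BCL6, control STAT5, activator STAT5). For U RNA, 7S and rRNA genes this share stayed between 1.73% and 3.28%. In the whole lists it was 39.6%, 41.0% and 42.6%. An interval at a snoRNA or microRNA gene can therefore also be an interval at the promoter of a protein-coding gene, and these cannot be told apart here.

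Chromosomes did not carry the members in proportion to the whole lists. In the control BCL6 list chromosome 5 held 6.18% of member intervals and 4.15% of all intervals, chromosome 4 held 5.14% and 3.67%, and chromosome 14 held 3.93% and 3.13%. The reverse held for chromosome 1 (9.35% and 11.6%), chromosome 19 (2.57% and 3.71%) and chromosome 21 (0.642% and 1.29%). A stretch of chromosome 2 from 30 to 75 Mb, in which the treated lists have many intervals, held 3.88% of activator STAT5 members and 7.14% of inhibitor BCL6 members, against 4.47% and 9.26% of these lists as a whole.

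Values were low in every class. The median value in the control lists was 2 in each class and the highest was 13, in BCL6 libraries at a microRNA and at an rRNA gene. Of the values at members, 28.4% and 27.7% in the 2 BCL6 libraries were above 2, against 26.6% and 28% in the whole list. In the 2 activator STAT5 libraries the shares were 34.6% and 46.7% at members and 35.1% and 46.6% in the whole list. SnoRNA intervals had 44.3% and 49.4% of activator values above 2, microRNA intervals 34.3% and 48.3%, and U RNA intervals 32.9% and 48.9%.

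A value in both control BCL6 libraries was found at 520 of 5292 member intervals (9.83%, 9.04 to 10.7), against 9.19% of the whole list. For control STAT5 it was found at 481 of 5169 (9.31%, 8.53 to 10.1), against 9.34%. Host transcripts aside, with 39 and 37 intervals, the classes spanned 8.37% (microRNA) to 11% (Y RNA) for BCL6 and 7.88% (rRNA) to 10.2% (microRNA) for STAT5. The microRNA genes were thus lowest with 1 antibody and highest with the other. Their confidence intervals, 6.63 to 10.4 for BCL6 and 8.17 to 12.4 for STAT5, overlap, and each includes the share of its whole list. The difference was not tested. Of the 520, 32 (6.15%) shared a base with a control STAT5 interval that had a value in both of its libraries, against 400 of 6287 (6.36%) in the whole list.

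The highest control BCL6 intervals, ranked by the lower library, lay at pseudogenes and at single microRNAs. RNU7-67P, a pseudogene of the U7 RNA of histone messenger processing, was first with 8 and 7. RNU2-42P, a pseudogene of the spliceosomal U2 RNA, had 6 and 6 at chr10:127579479-127580103. MIR570 had 7 and 4 at chr3:195426737-195427355, and the control STAT5 libraries had 2 and 6 at an interval overlapping it. MIR559 had 4 and 5 at chr2:47603764-47604332, and MIR1252 had 4 and 6. Both libraries of each of these were at or above 4. Among snoRNAs SNORA19 was first with 3 and 3, and among small Cajal body RNAs, which guide modification of spliceosomal RNAs, SCARNA12 had 2 and 2.

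The highest control STAT5 intervals were of the same kind. RNA5SP89, a 5S pseudogene, had 6 and 5, and RN7SL591P, a 7SL pseudogene, had 5 and 5 on the gene itself. MIR125B1, a gene of the miR-125 family, had 7 and 4 at chr11:121972641-121973226. MIR103A2 had 9 and 3 at chr20:3896552-3897736, and MIR216B had 8 and 3 at chr2:56227714-56228660, over its hairpin. For both of these the libraries differed by a factor of more than 2. An interval near SNORD114-18 and SNORD114-19 (chr14:101442723-101443270), C/D box snoRNAs of the imprinted DLK1-DIO3 region, had 3 and 5.

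At places with a value in all 4 control libraries, MIR217 and MIR216A, neighbours on chromosome 2, were both present, as were MIR759, MIR583, MIR1285-2 and MIR570. RNU6-634P, a U6 pseudogene, had 5 and 2 for BCL6 and 3 and 7 for STAT5. RNU6-310P had 3 and 4 for BCL6 and 4 and 3 for STAT5. RNU1-51P, a U1 pseudogene, had 3 and 5 and 4 and 3. For all of these the range of the BCL6 values overlapped that of the STAT5 values.

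Control STAT5 member intervals shared at least 1 bp with a control BCL6 interval in 1602 of 5169 cases (31%, 29.7 to 32.3), against 30.2% of the whole list. The value depends on single libraries: without control BCL6 replicate 2 it was 16.5%, against 16.2% of the whole list, and without replicate 1 it was 19.1%, against 18.5%. With 50% of the interval shared it was 16.8%, against 16.2%, and at 3 or more in every library 51% of 51, against 45.8% of 644. The classes lay between 25.3% and 32.5%. Activator STAT5 members lay on a control BCL6 interval in 259 of 1031 cases (25.1%, 22.5 to 27.9), against 25.6% of the whole list. Without control BCL6 replicate 1 or 2 this fell to 15.9% or 14.4%, against 15.8% or 13.8%. By class this was 31.6% of snoRNA intervals (25 of 79, 21.6 to 43.1), 30.2% of microRNA intervals (52 of 172, 23.5 to 37.7), 28.2% of rRNA intervals (29 of 103, 19.7 to 37.9), 26% of 7S intervals (60 of 231, 20.4 to 32.1) and 21.3% of U RNA intervals (90 of 423, 17.5 to 25.5). The interval for U RNA genes ends just under the share of the whole list and all others include it. The difference between classes was not tested.

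Inhibitor BCL6 members lay on a control STAT5 interval in 30 of 98 cases (30.6%, 21.7 to 40.7), against 23.7% of the whole list, which lies inside that interval. Without control STAT5 replicate 1 or 2 it was 17.3% or 18.4%, against 14.8% or 13.5%. Among intervals with 3 or more in every library the order turned, with 1 of 14 members (7.14%, 0.181 to 33.9) against 27 of 100 intervals of the whole list. U RNA genes had 16 of 44 (36.4%, 22.4 to 52.2), 7S genes 6 of 21 (28.6%), rRNA genes 3 of 12 (25%), snoRNA genes 2 of 8 (25%) and microRNA genes 3 of 13 (23.1%). All 259 and all 30 intervals of the shared lists were found unchanged in the treated list. Activator STAT5 and inhibitor BCL6 intervals shared a base at only 6 activator members (0.582% of 1031), against 73 intervals (0.520%) of the whole activator list.

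**Figure D3:**
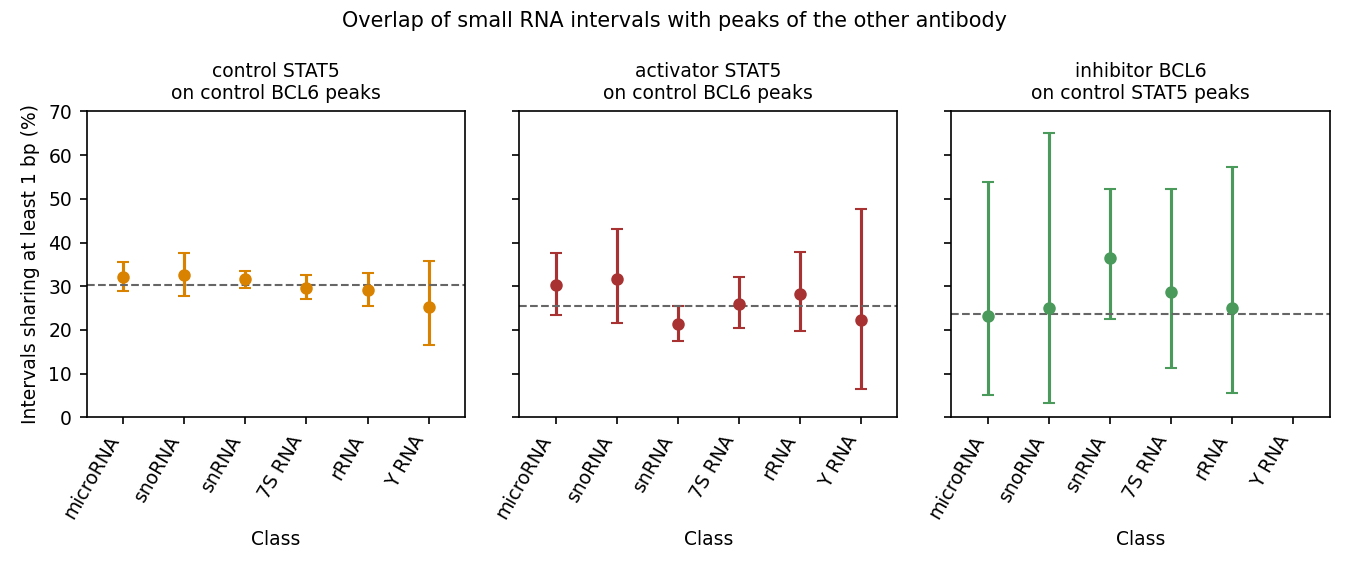
Percent of the intervals of each class that share at least 1 bp with an interval of the other antibody, for control STAT5 on control BCL6, activator STAT5 on control BCL6 and inhibitor BCL6 on control STAT5, with exact 95% binomial intervals as bars and a dashed line at the whole list. The dashed lines are at 30.2%, 25.6% and 23.7%, and the U RNA genes of the activator STAT5 list, at 21.3%, lie lowest of the larger classes in that panel.

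Many treated intervals adjoined a control interval of the same antibody without a base between them. This held for 205 of 1031 activator STAT5 members (19.9%, 17.5 to 22.5), against 18.9% of the whole list, and for 18 of 98 inhibitor BCL6 members (18.4%, 11.3 to 27.5), against 14.3%. Within 200 bp of such a peak were 361 activator members (35.0%) and 33 inhibitor members (33.7%). The share directly beside a peak was 24.1% for snoRNA, 23.8% for microRNA, 20.6% for U RNA, 19.4% for rRNA and 14.3% for 7S intervals of the activator list. Values of such an interval can belong to a wider peak that also covers the control interval.

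All libraries had at least 3 at 173 of 1031 activator STAT5 members (16.8%, 14.5 to 19.2), against 16.9% of the whole list. They had it at 14 of 98 inhibitor BCL6 members (14.3%, 8.04 to 22.8), against 6.05% of the whole list. Of the 14, 3 are intervals at RNU2-42P, and 2 of these flank the same control BCL6 interval. The 14 lay at RNU2-42P, RNA5-8SP2, RN7SKP286, MIR581, RNA5SP465, RNU6-710P, RN7SL98P, RN7SL302P, MIR301A, RN7SL863P, RN7SL333P and RNU1-36P. Of these 12 genes, 10 are pseudogenes by their symbols and 2 are microRNAs.

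The highest inhibitor BCL6 values were at RNU2-42P (gene chr10:127579046-127579247, minus strand). An interval at chr10:127580104-127580288 had 14, 17 and 51, a second at chr10:127579453-127579478 had 6, 17 and 51, and the last at chr10:127580747-127580856 had 10, 11 and 23. All 3 adjoined control BCL6 intervals, among them the one with 6 and 6 named above. The first and the second lie directly on either side of that control interval and had the same 17 and 51 in libraries 2 and 3. Whether they are parts of 1 peak was not tested. Library 3 was the highest in each of the 3 intervals, and its 51 lay far above the 6, 14 and 17 of the other libraries. RNA5-8SP2, a pseudogene of 5.8S rRNA, followed with 13, 18 and 15 at chr16:33962949-33963027, with the 3 libraries close together. This interval lay 442 bp from the nearest control BCL6 interval. RNA5-8SP2 was also the activator STAT5 member with the highest lower library, at 10 and 10 in a 30 bp interval at chr16:33963635-33963664, inside a control BCL6 interval with 2 and 13. Fragments of the small subunit rRNA are listed in the same stretch, so these intervals lie among copies of rRNA sequence.

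Among the inhibitor BCL6 microRNA genes, MIR581 had 4, 4 and 4 at chr5:53246740-53247011. The activator STAT5 interval chr5:53246773-53247100 overlapped it and had 3 and 4, which made MIR581 one of the few genes whose treated intervals of both antibodies shared bases. MIR301A, of the miR-130/301 family, had 4, 3 and 4 in an 18 bp interval at chr17:57228363-57228380 that adjoined a control BCL6 interval with 0 and 2. All other microRNA intervals of this list had a 2 in at least 1 library. MIR31, often high in colorectal cancer, had 3, 4 and 2 at chr9:21513877-21514065. MIR181A2 and MIR181B2 had 2, 3 and 5 in 1 interval at chr9:127453383-127453608. MIR192, a microRNA abundant in gut epithelium, had 2, 2 and 2 at chr11:64660800-64660993, on a control STAT5 interval with 5 and 0. Only at MIR197 did the interval reach the hairpin (chr1:110141286-110141528, gene from 110141514 to 110141593), with 2, 4 and 3. The others were MIR566 (2, 3 and 5), MIR1200 (4, 2 and 3), MIR760 and MIR1207 (2, 3 and 2 each), MIR1256, MIR555 and MIR583.

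**Figure D4:**
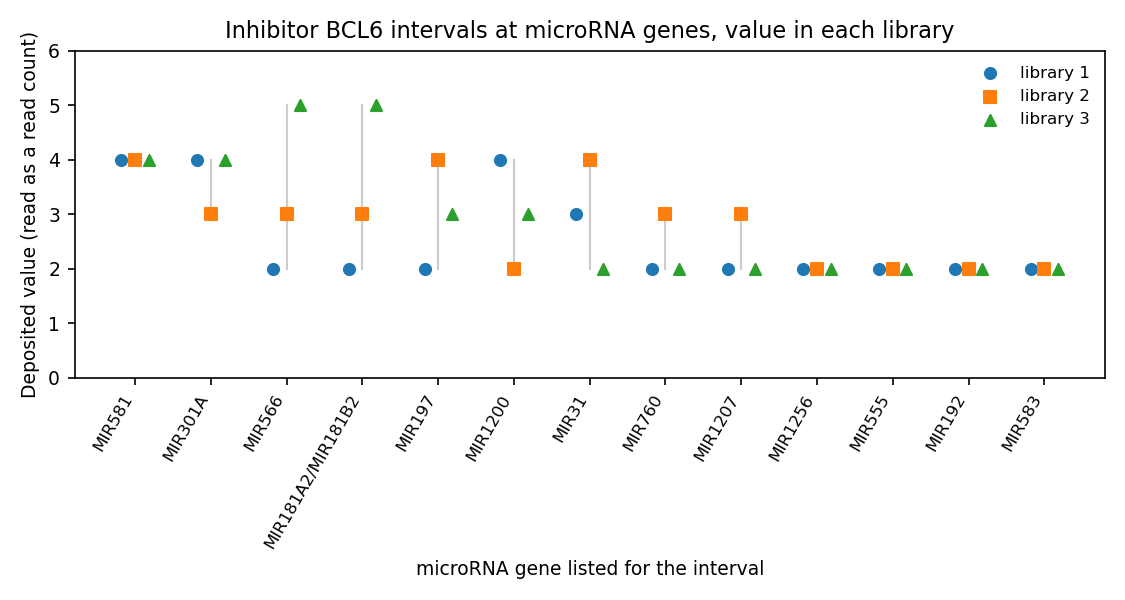
Values of the 13 inhibitor BCL6 intervals at microRNA genes (read count per interval) in each of the 3 libraries, 1 point per library. MIR581 (4, 4 and 4) and MIR301A (4, 3 and 4) were at or above 3 in every library, and MIR583 had 2 in all 3.

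The other inhibitor BCL6 members were mostly pseudogenes. RN7SKP286, a 7SK pseudogene, had 5, 5 and 4 in 40 bp, RN7SL302P had 4, 3 and 5, and RN7SL863P had 3, 3 and 4 on the gene. RNA5SP465 had 3, 4 and 8 at chr19:12139603-12139915, on a control STAT5 interval with 2 and 2. SNORA70B had 2, 4 and 5 at chr2:61644432-61644651, over the start of this H/ACA snoRNA gene. SCARNA10 had 6, 2 and 2 and SNORD17, a long C/D snoRNA, 2, 2 and 3. No inhibitor interval at a snoRNA gene had at least 3 in every library.

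Genes of working U RNAs were among the highest activator STAT5 members. RNU2-2P (gene chr11:62609092-62609281, minus strand), a U2 gene whose symbol ends in P, had 8 and 10 at the single base chr11:62609438 and 8 and 4 at chr11:62609445-62609489. Both lay just upstream of the gene, and the first adjoined a control STAT5 interval that covers the gene (chr11:62608866-62609437, 2 and 10). RNU5E-1, a U5 gene of the spliceosome, had 5 and 9 at chr1:11968140-11968451, which covers the whole gene (chr1:11968210-11968328), and 2 and 9 at chr1:11968805-11968950. RNU6-439P had 9 and 5 at chr2:49461989-49462061, and RN7SL604P had 5 and 7 in 27 bp on the gene at chr2:69744095-69744121. In these 2 pseudogenes the first or the second library was higher, with no common order.

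Of 26 working U, Y, 7SK and 7SL genes in a fixed list, 11 were in the control BCL6 list, 15 in control STAT5, 5 in activator STAT5 and 0 in inhibitor BCL6. Of all U RNA symbols, nearly all pseudogenes, 56.4%, 57.1%, 18.1% and 2.18% were in these lists. RNU2-2P and RNU5E-1 were not in the fixed list. The activator list had RNU1-1 (2 and 2, over the gene, chr1:16840691-16840816), RNU5A-1 (5 and 2, chr15:65587586-65587835), RNU6-2 (3 and 2), RNU6-8 (4 and 2, chr14:32674861-32675114) and RN7SK (2 and 2, chr6:52858623-52858877). RNU6-8 also lay on a control BCL6 interval. RN7SK is the single working gene of 7SK RNA.

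At snoRNA genes the first activator STAT5 interval was that of SNORD127, a C/D box snoRNA, with 5 and 8 at chr14:45578537-45578980. It adjoined a control STAT5 interval (chr14:45578981-45579341) with 3 and 2 and lay on a control BCL6 interval with 2 and 0. SNORA70E had 9 and 3, SNORD20 6 and 3, and SNORD114-31 3 and 7. SCARNA7 had 3 and 3 at chr3:160232842-160232986, on the gene. Further intervals on the gene itself were those of SNORA8 (4 and 3), SNORD16, SNORA80A and SNORA52 (4 and 2 each), SNORA71D (2 and 5), SNORD82 (2 and 4), SNORD46 (2 and 4) and SNORD38A (2 and 2). The interval of SNORA52 reached only the last base of the gene. Others were those of SNORA45A, SNORD14D and SNORD114-16 (2 and 4 each), SNORD114-20 (2 and 3), SNORA5A (3 and 2) and SNORD123 (2 and 2).

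The snoRNA cluster on chromosome 14 (SNORD113 and SNORD114 copies) was a dense run of members. Of its 41 genes, 34 were in the control BCL6 list, 36 in control STAT5, 19 in activator STAT5 and 0 in inhibitor BCL6, beside 39.1%, 40.5%, 16.2% and 1.57% of all snoRNA symbols. They stood for 31, 38, 11 and 0 intervals over 68.5 kb. A value in both libraries was found at 4 of 31 control BCL6 intervals (12.9%) and 3 of 38 control STAT5 intervals (7.89%). Of the 11 activator intervals 3 adjoined a control STAT5 interval and 1 lay on a control BCL6 interval, and their median values were 2.0 and 3.0. The cluster of microRNAs in the same imprinted region had 35 genes in any list. Of these, 26 were in control BCL6, 33 in control STAT5, 5 in activator STAT5 and 0 in inhibitor BCL6. Of all 559 listed microRNA symbols, 475, 473, 137 and 14 were in these lists. The 5 activator genes shared 1 interval, and the control lists had 20 intervals each.

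**Figure D5:**
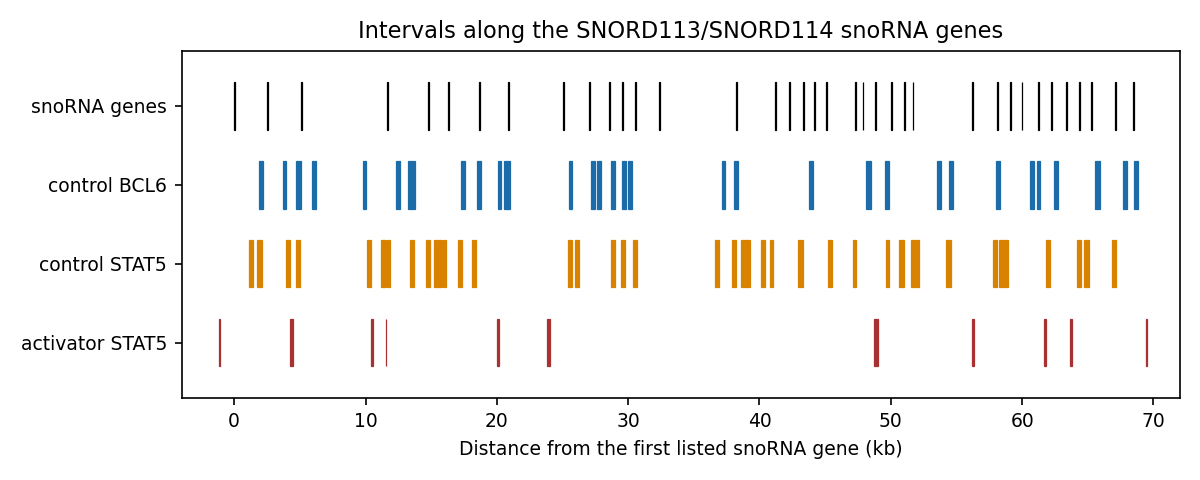
Map of the SNORD113 and SNORD114 genes and of the control BCL6, control STAT5 and activator STAT5 intervals, by distance from the first gene (kb). The 31 control BCL6 and 38 control STAT5 intervals are spread over the whole cluster, and 11 activator STAT5 intervals lie among them. The inhibitor BCL6 list had no interval here and is not drawn.

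Counts of other snoRNA groups stand beside the shares of all snoRNA symbols. These were 39.1% in control BCL6, 40.5% in control STAT5, 16.2% in activator STAT5 and 1.57% in inhibitor BCL6. Differences between groups were not tested. The clustered snoRNAs of chromosome 15, from the imprinted Prader-Willi region, had 20, 17, 3 and 0 of 83 genes in the 4 lists (control BCL6, control STAT5, activator STAT5, inhibitor BCL6). All 4 snoRNA genes inside RPL13A, a ribosomal protein gene, were in both control lists and 0 in the treated ones, where snoRNA symbols as a whole are at 16.2% and 1.57%. No symbol of the 8 snoRNAs of SNHG1 or of the 10 of GAS5, hosts whose spliced RNA codes for no protein, was in any list. Intervals without a symbol were not resolved to genes.

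At microRNA genes the activator STAT5 intervals highest in the lower library were those of MIR190A and MIR297. MIR190A had 5 and 5 in 42 bp at chr15:63116909-63116950, adjoining a control STAT5 interval with 0 and 2, and MIR297 had 5 and 5 at chr4:111784059-111784169. MIR591 had 4 and 8 at chr7:95851102-95851459, and MIR559 had 4 and 7 at chr2:47602292-47602502. Both of the last lay on a control BCL6 interval, with 0 and 2 and with 2 and 0. The largest single value, 19, was at MIR620 (3 and 19, chr12:116588361-116588644), named here after its values were seen. At MIR620 the 2 libraries differed by more than at any of the other microRNAs named here. Activator intervals that shared bases with a hairpin were those of MIR583, MIR1261 (4 and 2), MIR644A (3 and 2), MIR591, MIR490 and MIR548H1 (2 and 3 each), MIR1207 (2 and 3), MIR148B and MIR577 (2 and 2 each). Of these, only the intervals of MIR583, MIR1261 and MIR1207 covered the whole gene. Those of MIR490 and MIR548H1 reached only the last bases of the gene.

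The let-7 and miR-15/16 families, whose seeds are printed above, were in the list of activator STAT5 intervals on control BCL6 intervals. For let-7, which represses growth genes such as RAS, 10 of 12 genes were in the control BCL6 list, 7 in control STAT5, 3 in activator STAT5 and 0 in inhibitor BCL6. Of all microRNA symbols, 24.7%, 24.6%, 7.06% and 0.680% were in these lists, so that a 0 in the inhibitor list is near the share of the class for a family of this size. MIRLET7A1 and MIRLET7F1 had 4 and 2 at chr9:96937810-96938070, wholly inside a control BCL6 interval (chr9:96937750-96938075) with 2 and 2. MIRLET7I had 3 and 2 at chr12:62995352-62995567, on no control BCL6 interval. For miR-15/16, which targets BCL2, 3 of 4 genes were in each control list and the same 3 in activator STAT5. MIR15B and MIR16-2 had 4 and 2 in 18 bp at chr3:160121581-160121598, adjoining a control STAT5 interval (chr3:160120979-160121580) with 2 and 5. MIR16-1 had 4 and 2 at chr13:50623220-50623327, 3 and 3 at chr13:50624327-50624479 and 2 and 3 at chr13:50625266-50625577, of which the first and second lay on control BCL6 intervals. For the first of these the shared list gives control values of 3 and 0, whereas the control BCL6 list gives 3 and 2 for the interval it lies in (chr13:50622879-50623470).

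The other microRNAs printed by seed in that list had low values. MIR1-1 had 2 and 4 at chr20:61152385-61152617 and MIR206 had 3 and 2 at chr6:52006999-52007304, both muscle microRNAs with the same seed, on control BCL6 intervals with 0 and 2 and with 2 and 0. The second MIR190A interval (chr15:63114761-63114998) and that of MIR190B (chr1:154167370-154167475) had 2 and 2 each. MIR23B and MIR27B, neighbours whose seeds differ, had 2 and 2 at chr9:97846716-97846799, on a control BCL6 interval with 2 and 0. At each of these intervals only 1 of the 2 control BCL6 libraries had a value. MIR214 (4 and 4, control 4 and 0) and MIR199A2 (3 and 5, control 4 and 2), which come from 1 transcript antisense to DNM3, both were in the list too.

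Of 12 microRNA genes known from colon and its cancers, 8 were in each control list, 5 in activator STAT5 and 2 in inhibitor BCL6 (MIR31 and MIR192, above), beside 24.7%, 24.6%, 7.06% and 0.680% of all microRNA symbols. MIR21, a microRNA raised in many tumours and a known STAT3 target, had activator values of 2 and 8 at chr17:57917304-57917445, adjoining a control STAT5 interval with 2 and 0. MIR194-1 had 2 and 4 at chr1:220294451-220294583 and, with MIR215, 2 and 2 at chr1:220291650-220291876. MIR221 and MIR222, which repress the cell cycle inhibitor p27, had 3 and 2 in 8 bp at chrX:45608149-45608156. At all of these the lower library was at 2. The miR-200 family, which keeps cells epithelial, had all 5 genes in both control lists and 0 in the treated lists, which hold few microRNA genes in any case. The 3 miR-34 genes, p53 targets, had 3, 2, 0 and 0 in the same lists.

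Of 8 microRNA genes linked to STAT5 or BCL6 in a fixed list, 3 were in control BCL6, 4 in control STAT5, 2 in activator STAT5 and 0 in inhibitor BCL6, beside 24.7%, 24.6%, 7.06% and 0.680% of all microRNA symbols. The 2 were MIR181A1 and MIR181B1, with 2 and 2 in 1 interval at chr1:198827401-198827604. The miR-17-92 cluster and its paralogs had 4, 9, 1 and 0 of 15 genes, which stood for 3, 4, 1 and 0 intervals. The symbols of the cluster itself, MIR17, MIR18A, MIR19A, MIR20A, MIR19B1 and MIR92A1, were in none of these lists. The 1 activator gene was MIR18B with 3 and 2 at the single base chr13:92003093. The list places MIR18B on chromosome 13, inside MIR17HG, the host of the miR-17-92 cluster, whereas RefSeq places it on X, so this symbol is uncertain. It was 1 of 2 mismatches among 514 matched microRNA genes, the other being MIR1827. The primate cluster on chromosome 19 had 33, 21, 1 and 0 of 45 genes, with MIR521-1 at 2 and 2.

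Most small RNA genes of the treated lists were also in control lists through other intervals. Of 855 symbols of the activator STAT5 list, 763 (89.2%) were also in the control BCL6 list, 753 (88.1%) in that of control STAT5, and 19 (2.22%) in neither. Over all symbols these shares were 87.2%, 87.1% and 2.35%. Of 97 symbols of the inhibitor BCL6 list, 84 (86.6%) were in control BCL6 and 92 (94.8%) in control STAT5, against 86.9% and 90.7% over all symbols. In all 4 separate lists were 26 of 3048 member symbols (0.853%), against 1.08% of all symbols. By class they were 14 U RNA genes, 4 microRNAs, 3 snoRNAs, 3 7S genes and 2 rRNA genes.

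Promoters of host transcripts were searched for the STAT site TTCNNNGAA, which reads the same on both strands, in the 250 bases before to 50 bases after each start. It was found in 4 of 27 host transcript promoters (14.8%; MIR155HG, MIR4458HG, MIR7-3HG and MIR99AHG) and in 2689 of 35116 promoters of all genes (7.66%). None of the 7 host transcripts of the activator STAT5 list had these letters in that window.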

How the data were processed

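ChIP-seq lists of 9 libraries were analysed. Reads were processed with CASAVA 1.8.2 and Bowtie 0.12.7 on GRCh37, per the submitters' processing notes; the peak caller and its threshold were not given in the labels. The deposited lists give, per interval, a whole number for each library, read here as a raw count without normalization; the unit is not named in the headers. From these lists distinct intervals were taken by coordinates, members by symbol, and overlaps by at least 1 shared base. Members, gene lists and tests were chosen with earlier results of these data known. Members to be named were the up to 3 highest of each class and list by the lowest library, the microRNAs and up to 5 others per class of the shared lists, genes in all 4 lists, working U, Y and 7S genes and fixed families. Members named outside this rule (the other inhibitor microRNAs, MIR620, intervals on the gene itself and other inhibitor members) were chosen after their values were seen. Control libraries were compared by an exact permutation test. Python 3.11.15, pandas 2.3.3, numpy 2.4.6, scipy 1.17.1 and matplotlib 3.10.9 were used, and the scripts were tested on simulated data. Alternatives covered the window, the value minimum, the overlap, joined intervals, a minimum width, nearest genes only, host transcripts and single libraries; leaving out control libraries under the treated lists was added after seeing the data. Sequences and gene types are from RefSeq (GRCh38.p14), matched by symbol for 3022 of 3048; its coordinates were not used with those of the intervals. No genome of GRCh37 was used here, so no interval sequence is shown. Another 207, 184, 45 and 4 pairs of interval and gene without a symbol were described as small RNA genes and stayed outside the rule.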

Additional observations from a re-analysis of the deposited data

How the results depend on the processing

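With a window of 1000 bp before to 500 bp after the start, member counts were 2110 (control BCL6), 2019 (control STAT5), 388 (activator STAT5) and 37.0 (inhibitor BCL6), and control STAT5 members lay on control BCL6 intervals in 33.2% of cases. Without one library, counts ranged from 2756 to 3056 for control BCL6 and from 2560 to 3090 for control STAT5, and that overlap from 16.5% to 32.4%; in an alternative chosen after seeing the data, the overlap of activator STAT5 with control BCL6 ranged from 14.4% to 15.9% and that of inhibitor BCL6 with control STAT5 from 17.3% to 18.4%, each lower since fewer control intervals remain; a treated list needs a value in every library, so leaving one out gave no count. Requiring 50% of an interval to be shared gave 16.9% for activator STAT5 on control BCL6 and 16.8% for control STAT5 on control BCL6. Requiring at least 3 in every library gave 28.9% for activator STAT5 (173 intervals), 7.14% for inhibitor BCL6 (14, against 27 of 100 intervals of the whole list) and 51.0% for control STAT5 (51). The STAT5 minus BCL6 difference in the share of intervals changed sign at a minimum value of 3 for microRNA genes (0.117 percentage points, against -0.0768), snoRNA genes (0.0265, against -0.0108) and Y RNA genes (-0.0446, against 0.00294). Without one control library it ranged from -0.0791 to 0.0575 for snoRNA genes, from -0.0504 to 0.0241 for U RNA genes (-0.0131 with all), from -0.00361 to 0.00949 for Y RNA genes and from -0.0886 to 0.0300 for rRNA genes (-0.0293 with all). The cause was not tested. Joining intervals within 100 bp, a width of at least 50 bp, nearest genes only and counting host transcripts as microRNA genes left the member counts and overlaps of the lists within the limits set. Of the values by class or family, 272 kept direction and size, 9 changed sign and the others moved over the alternatives. No paired analysis was possible because the groups share no replicate numbers in the labels. Depth per library is unknown, and most values are at the minimum of 2, so differences of 1 or 2 between libraries cannot be told from counting error.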
